A study of Mus musculus with 13 samples.

Results

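The entries described here are the consensus sequences of LINE-1 retrotransposons that do not belong to the L1Md families, the recently active LINE-1 families of the mouse. They were chosen by a rule on names, set with earlier results of these data known. An entry was taken if its name starts with LX in any case or with L1, or gives L1 as its class, and does not start with L1Md. Of the 2035 entries listed in each table, 149 met this rule, and 53 of these had a nonzero value in at least 1 of the 13 libraries, out of 895 such entries in all. All 53 had signal in the B16 table and 45 in the KP table. By name, 19 of the 53 were Lx entries, 2 were L1_Rat entries, 2 were L1_Mus entries and 30 had other names. Only names that start with Lx were counted as Lx, so L1Lx_I, L1Lx_II, L1Lx_III and L1Lx_IV are among the other names.

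LINE-1 elements are retrotransposons that copy themselves through an RNA. A full element carries a promoter at its 5′ end, a first reading frame for an RNA-binding protein (ORF1), a second for an endonuclease and reverse transcriptase (ORF2), and a poly(A) tail at its 3′ end. Most genomic copies are truncated at the 5′ end, so 3′ end sequence is the most abundant, and the consensus entries of one element are often split into 5′ end, ORF2 and 3′ end parts. Lx is an old LINE-1 lineage of murid rodents whose copies have decayed, and B1 and B2 SINEs depend on LINE-1 proteins to move. Thymine DNA glycosylase, the product of Tdg, removes thymine from mismatches and takes part in the removal of methyl marks from cytosine. Trp53 encodes the tumor suppressor p53.

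Strand-specific sequencing of RNA depleted of ribosomal RNA was available from B16, a mouse melanoma line, and KP, a mouse lung adenocarcinoma (LUAD) line. B16 libraries were WT, Trp53 KO, Tdg KO or Tdg Trp53 DKO (double knockout), 2 of each, and KP libraries were WT (2) or Tdg KO (3). The labels give no treatment, do not say whether a knockout was 1 clone or a pool, and do not give the Trp53 genotype of KP cells. They do not say that replicates were separate cultures, so p-values here measure only the spread between these libraries, which may be technical. The levels of Tdg and Trp53 themselves were not analysed here, so the genotypes rest on the labels.

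Values are mean read coverage per base of an entry, on the strand of the element (sense) or on the opposite strand (antisense). They are per length, so levels can be set side by side between entries. For the 47 members with at least 3 nonzero values, each value was a whole number of covered bases divided by a single length between 300 and 6778 bases, and the most frequent low value was 299 covered bases, or about 1 fragment. The coverage was therefore not scaled to library size. By this measure the members held about 11952 to 24943 fragments per library in B16 and 1570 to 5004 in KP. Related consensus sequences can hold the same reads, so members are not independent of one another. A lower level in such bulk RNA cannot be told apart from fewer cells that make it.

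Coverage of 7SL, the RNA of the signal recognition particle, made up 85.3% to 95.4% of the coverage in a B16 library and 93.3% to 99.1% in a KP library. The lowest share of it on the sense strand was 99.3%, so the strand labels are in the order the headers give. DKO library 1 and KP Tdg KO library 1 had the highest 7SL shares of their tables. The part of 7SL and of library size in the results was not tested. Results on coverage are therefore set beside the same fit after median-ratio scaling, which divides a library by the median of its ratios to the average library. The scaling factors were 0.688 and 0.935 for B16 WT, 0.614 and 0.522 for Trp53 KO, 0.863 and 0.646 for Tdg KO, and 1.76 and 1.37 for DKO. In KP they were 0.597 and 0.746 for WT and 0.894, 1.06 and 1.34 for Tdg KO.

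The taxa in the names separated entries with and without signal. Signal was present for 23 of 26 entries tagged Mus, 18 of 19 tagged Muridae, 7 of 8 tagged Rattus and 2 of 2 tagged Cricetulus. None of the 36 entries tagged Cavia and none of the 26 tagged Homo had any. The best-covered members were not L1_Rat entries. In B16 the highest sense coverage belonged to L1_Mus1_3end, L1_Mus2_3end, L1_MM and Lx_3end, and the highest of the 2 L1_Rat entries, L1_Rat4_3end, had a mean sense coverage of 9.77. The group is thus led by entries named for mouse and by Lx. Where members are called older below, the word stands for the name rule alone, and no age of an entry was available.

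L1_Mus1_3end, the 3′ end of a mouse LINE-1, had the highest coverage. In the B16 libraries its sense coverage was 47.5 and 78.6 with WT, 54.4 and 40.9 with Trp53 KO, 81.9 and 49.4 with Tdg KO, and 130 and 85.8 with DKO. The DKO libraries were the highest of the 8, and the other 3 genotypes overlapped. In KP its sense coverage was 23.1 and 22.3 in WT and 9.29, 22.0 and 51.7 in Tdg KO, so the Tdg KO libraries lay below, near and above the WT libraries. Lx_3end, the 3′ end of the Lx lineage, had sense coverage of 27.6 and 44.3 with WT, 38.9 and 21.8 with Trp53 KO, 43.1 and 36.1 with Tdg KO, and 54.4 and 40.5 with DKO in B16. For Lx_3end the DKO libraries overlapped WT and Tdg KO.

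Summed over the 53 members, antisense coverage was higher than sense coverage in all 8 B16 libraries. The sense sums were 355 and 674 in WT, 415 and 259 in Trp53 KO, 662 and 434 in Tdg KO, and 892 and 726 in DKO. The antisense sums were 1178 and 1267 in WT, 894 and 1092 in Trp53 KO, 1096 and 885 in Tdg KO, and 1437 and 1747 in DKO. The DKO libraries had the highest sums on both strands.

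This order did not hold relative to the other repeats or after scaling. As a share of repeat coverage other than 7SL, the members took 5.98% and 8.04% in WT, 4.75% and 6.59% in Trp53 KO, 7.37% and 7.27% in Tdg KO, and 4.96% and 8.28% in DKO. After median-ratio scaling, the mean sense sum was 517 ± 16.2 (SD, n = 2) in DKO, 586 ± 127 in Trp53 KO, 719 ± 66.8 in Tdg KO and 619 ± 144 in WT. DKO then had the lowest mean of the 4 genotypes, where it had the highest as deposited. No test was made on these sums, since the members were chosen with results of these data known.

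In KP, whose table was analysed apart, the sums were less one-sided. Sense sums were 116 and 96.3 in WT and 54.9, 90.5 and 252 in Tdg KO, and antisense sums were 94.4 and 163 in WT and 135, 194 and 290 in Tdg KO. The Tdg KO libraries spanned a wider range than WT on both strands. The members took 4.01% and 4.66% of repeat coverage other than 7SL in WT and 1.23%, 2.78% and 4.55% in Tdg KO. KP Tdg KO library 1, with the lowest share, was the library whose 7SL share was 99.1%.

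The ratio of summed sense to summed antisense coverage is formed within a library and is free of its scale. It was 0.302 and 0.532 in B16 WT, 0.464 and 0.238 in Trp53 KO, 0.604 and 0.490 in Tdg KO, and 0.621 and 0.416 in DKO. The genotypes overlapped, apart from Tdg KO, whose libraries both lay above those of Trp53 KO. In KP the ratio was 1.23 and 0.591 in WT and 0.408, 0.466 and 0.870 in Tdg KO, and KP WT library 1 was the only library with more sense than antisense coverage. The L1Md families gave ratios of 0.298 to 0.730 in B16 and 0.371 to 0.984 in KP, so antisense excess was not limited to the older entries.

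**Figure D1:**
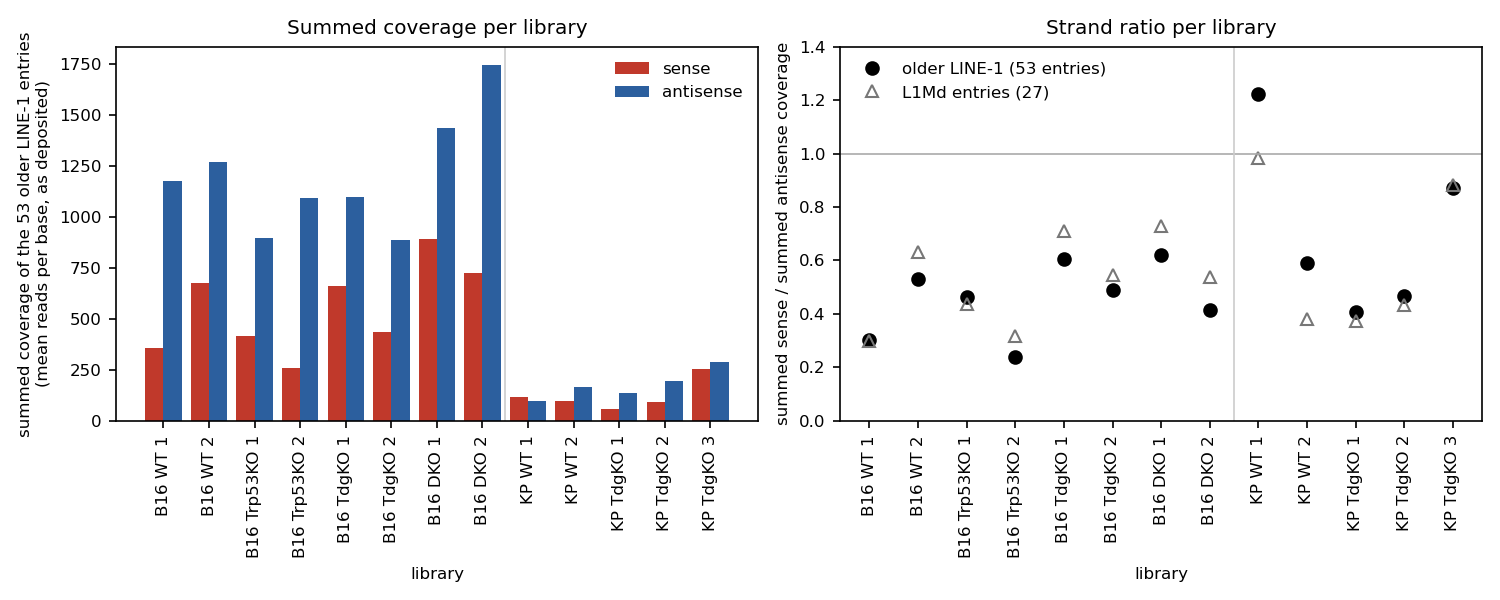
Left, summed coverage of the 53 older LINE-1 entries per library (mean reads per base, as deposited), sense in red and antisense in blue; right, the ratio of the sums per library for the older entries (circles) and the 27 L1Md entries (triangles). Antisense exceeds sense in all libraries but KP WT library 1, and the DKO sums are the highest of the B16 table as deposited.

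Single members followed the sums. Of the 37 members with a mean coverage of at least 1 in B16, between 0 and 8 per library had more sense than antisense coverage. Of the 24 such members in KP, 2 to 14 did, and the 14 were in WT library 1. By mean coverage in B16, only L1_Rat4_3end, named for the rat, and L1_Rn2_3end had more sense than antisense coverage, the latter at 4.85 and 4.73. L1_Rat4_3end had sense coverage of 9.66 and 10.7 in B16 WT, 13.4 and 4.21 in Trp53 KO, 7.51 and 9.35 in Tdg KO, and 13.2 and 10.1 in DKO. Its antisense coverage was 8.73 and 4.56 in WT, 4.78 and 8.01 in Trp53 KO, 2.85 and 2.63 in Tdg KO, and 11.6 and 11.2 in DKO. Sense was above antisense in the WT and Tdg KO libraries and below it in Trp53 KO library 2 and DKO library 2. In KP its mean sense coverage was 3.40 and its mean antisense coverage 1.32.

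Strand balance and level were also set out by the part of the element. Among members with a mean coverage of at least 1 in B16, the sense strand held 24.6% of the coverage of the 6 entries for 5′ ends, 30.4% of the 3 for ORF2, 31.8% of the 14 for 3′ ends and 32.2% of the 14 whole or unspecified entries. In KP the corresponding shares were 52.5%, 24.3%, 45.2% and 35.7%, over 3, 2, 10 and 9 entries. Median antisense coverage in B16 was 7.96 for 5′ ends, 13.7 for ORF2 and 14.3 for 3′ ends. By lineage, the sense share was 28.9% for 12 Lx entries, 30.6% for the 2 L1_Mus entries, 56.7% for the 2 L1_Rat entries and 33.0% for the remaining 21. These are descriptions of the entries, which share reads, and carry no test.

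**Figure D2:**
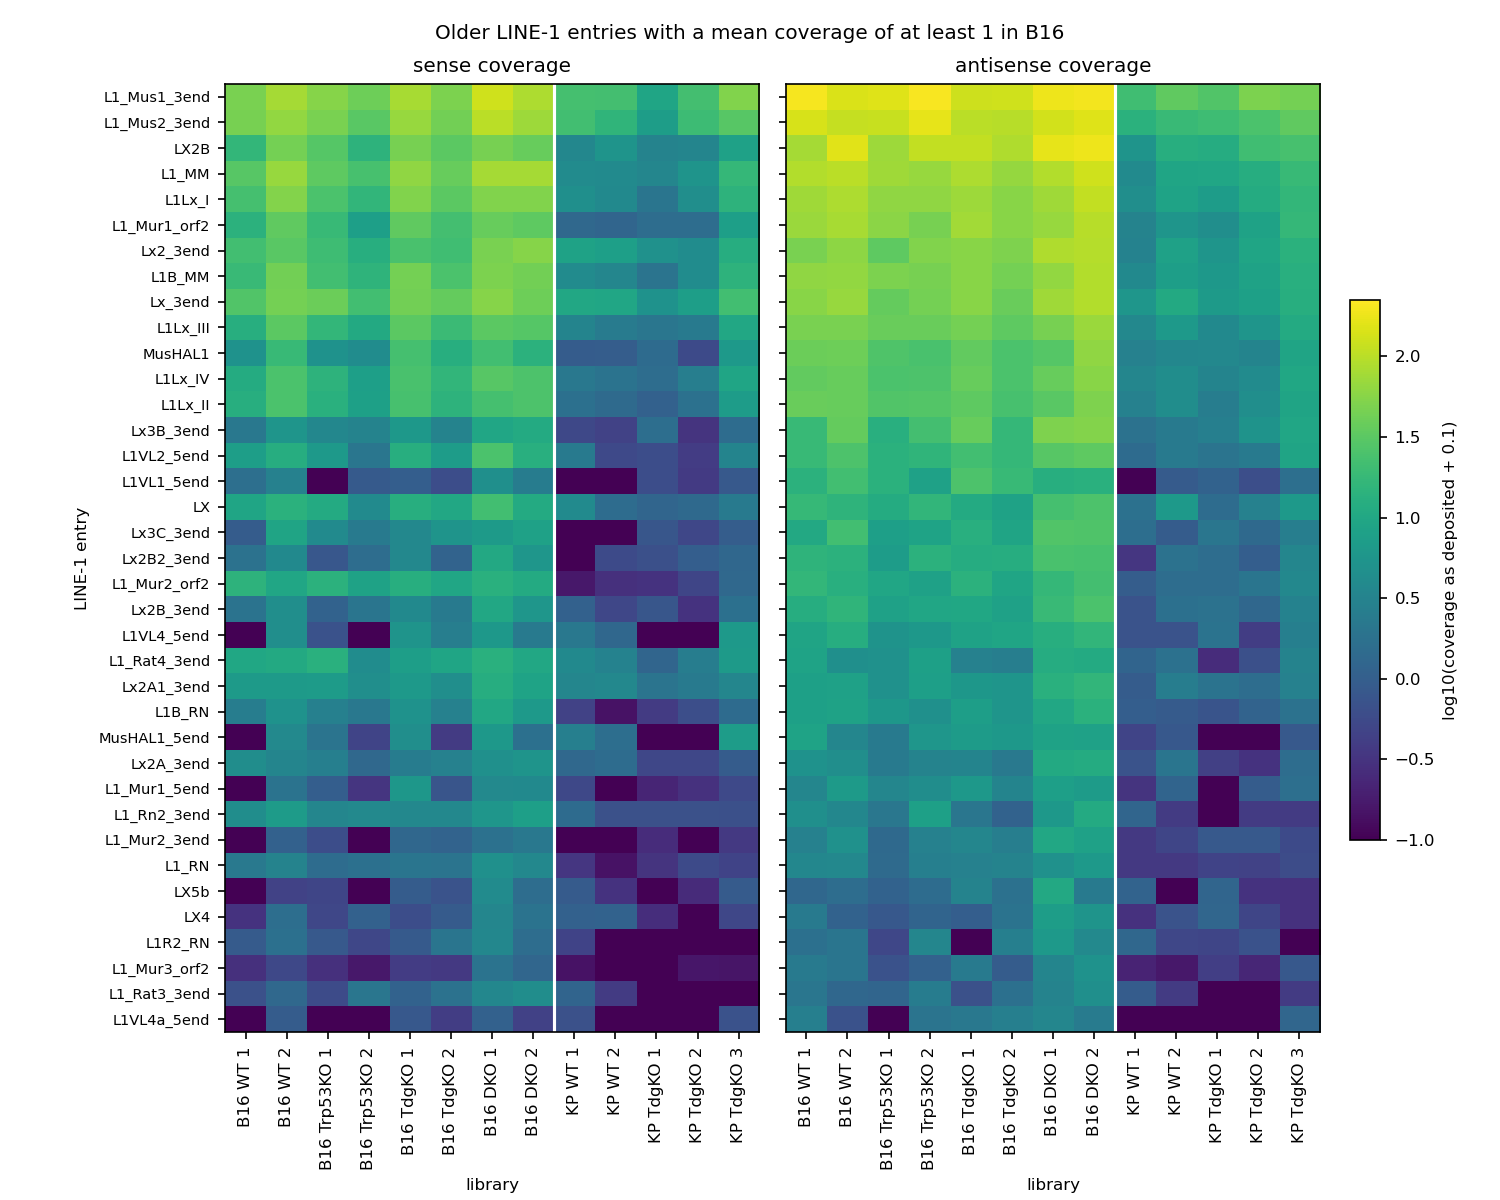
Coverage of the 37 older LINE-1 entries with a mean of at least 1 in B16, as log10 of deposited coverage plus 0.1, with entries in order of level and 1 column per library; left, sense, and right, antisense. The 2 L1_Mus entries are the best covered in both cell lines, and most entries are lower in the KP columns, with no scaling between the tables.

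Loss of Tdg in cells that lack Trp53 was read from DKO against Trp53 KO. As deposited, 20 of the 83 member strands kept in B16 (24.1%) rose and 0 fell, against 29.5% of all 1246 kept strands that rose and 1.52% that fell (limma, Benjamini-Hochberg adjusted p under 0.05). Of the 20, 5 were sense and 15 antisense. The members' share is near that of the whole table, which itself shifted. The median log2 change was 1.37 for the members and 1.67 for all kept strands. In 5 member strands and 241 of all kept strands a group was at 0. With these set to their bound, or to a change of 0 where no bound could be given, the medians were 1.27 and 1.18. In 74 of the 83 strands (89.2%) both DKO libraries were above both Trp53 KO libraries, against 68.9% of all kept strands, and in 0 they were below, against 4.57%. Of the 83, 80 reached the minimum mean coverage of 0.1 without the higher group, and in 72 of them DKO was above. All kept strands were not counted in this way.

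After median-ratio scaling, 2 members rose and 0 fell, against 6.18% and 3.93% of all kept strands. The members' median log2 change was then -0.07, and that of all kept strands fell from 1.67 to 0.60. With each library centred on its median, 0 members rose and 5 fell (2.09% and 8.83% of all kept strands). With quantile normalization, 0 rose and 0 fell (3.05% and 4.17%), and no member passed in the same direction under all 4 scalings. The rise of these members as deposited thus cannot be told apart from a difference in library size. The count also rested on single libraries: without either Trp53 KO library it was 0, without DKO library 1 it was 5 and without DKO library 2 it was 9. Without either Tdg KO library, which only add to the estimate of the spread, it was 13.

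Entries whose names start with Lx made up 11 of the 20 calls. Of 14 such antisense strands 8 rose (57.1%), against 33.2% of all kept antisense strands, and of 13 such sense strands 3 rose (23.1%), against 26.2% of all kept sense strands. The 8 include LX5c, which was kept only through DKO. L1Lx_I, L1Lx_II, L1Lx_III and L1Lx_IV were counted with the remaining names, and none of their strands passed, so the Lx shares depend on this split. The difference from the other strands was not tested. Lx2_3end, a 3′ end, rose from sense coverage of 20.6 and 12.4 in the Trp53 KO libraries to 47.3 and 54.4 in the DKO libraries, with 21.3 and 31.1 in WT and 24.2 and 20.6 in Tdg KO. The DKO libraries were the highest and stood clear of the other 6. Its log2 change was 1.66 ± 0.35 (SE; limma adjusted p = 0.0209) and 0.21 ± 0.30 after scaling (adjusted p = 0.657).

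Lx2A_3end, another 3′ end of the lineage, rose from antisense coverage of 2.32 and 3.04 to 10.9 and 11.4, with 5.06 and 4.39 in WT and 3.11 and 2.14 in Tdg KO. Both DKO libraries were above every other library. The log2 change was 2.03 ± 0.38 (limma adjusted p = 0.0185) and 0.60 ± 0.41 after scaling (adjusted p = 0.332). LX4 antisense coverage rose from 0.724 and 1.12 to 7.15 and 5.31, with 2.23 and 1.04 in WT and 0.898 and 1.81 in Tdg KO. Its groups did not overlap, and the log2 change was 2.64 ± 0.61 (limma adjusted p = 0.0238), or 1.26 ± 0.73 after scaling (adjusted p = 0.273). Lx3C_3end antisense coverage rose from 7.58 and 8.60 to 27.5 and 26.7, a log2 change of 1.73 ± 0.40 (limma adjusted p = 0.0242) that came to 0.29 after scaling. For Lx2B_3end antisense, at 8.06 and 9.56 against 18.4 and 25.3, the change was 1.29 ± 0.31 (adjusted p = 0.0269) and turned to -0.16 after scaling.

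The remaining names gave 9 calls among 48 strands (18.8%, against 29.5% of all kept strands), including 5′ end and ORF2 entries. L1_Mur3_orf2, which covers the reading frame of the reverse transcriptase, rose from sense coverage of 0.192 and 0.0639 to 1.78 and 1.19, with 0.191 and 0.432 in WT and 0.298 and 0.255 in Tdg KO. The DKO libraries were the highest, with a log2 change of 2.83 ± 0.65 (limma adjusted p = 0.0238) and 1.78 ± 0.62 after scaling (adjusted p = 0.108). Its mean in Trp53 KO lay under a floor of 3 fragments per library, so no size is read from the change. L1_Mur2_3end antisense coverage rose from 1.29 and 2.83 to 10.1 and 8.24, a change of 2.19 ± 0.52 (limma adjusted p = 0.0247) and 0.77 after scaling. L1VL4_5end, a 5′ end, rose from antisense coverage of 5.15 and 6.10 to 12.4 and 15.7. The change was 1.30 ± 0.32 (limma adjusted p = 0.0267) and turned to -0.14 after scaling.

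LX5c and L1VL2_5, both antisense, also passed after scaling, but they were kept for testing only through the DKO libraries in which they are high. Over the other 6 B16 libraries their mean coverage was 0.0806 and 0, under the minimum of 0.1, so a difference was fixed by the filter and their p-values support nothing. LX5c was listed at 0 in both Trp53 KO libraries and at 0.618 and 0.600 in DKO, and L1VL2_5 was listed at 0 in both and at 0.500 and 0.443. These values correspond to about 5.13 fragments over both DKO libraries for LX5c. For L1VL2_5 they come to about 0.946 at an inferred length of 300 bases, which may be a fraction of the true length. Both lie under a floor of 3 fragments per library, so no fold is given. The other 18 of the 20 calls reached the minimum without DKO, and 0 of those 18 passed after scaling.

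The other 10 strands that rose were Lx2_3end, L1VL2_5end, Lx2A1_3end, Lx_3end, L1_Mur3_orf2, L1_Mur2_orf2 and L1B_RN antisense, and Lx2B_3end, Lx2B2_3end and L1VL2_5end sense. Their log2 changes ran from 1.06 for Lx_3end antisense to 2.79 for Lx2B2_3end sense, with limma adjusted p-values from 0.0322 to 0.0481. After scaling, none of the 10 passed, and 6 of the 7 antisense strands had values below 0. These 10 were named after their values were seen.

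The best-covered sense entries did not pass. L1_MM, a mouse LINE-1 entry, had sense coverage of 33.4 and 23.4 in the Trp53 KO libraries against 79.0 and 78.5 in the DKO libraries, with 29.7 and 67.0 in WT and 62.4 and 37.6 in Tdg KO. The log2 change against Trp53 KO was 1.49 ± 0.46 (limma adjusted p = 0.0512) and 0.04 after scaling. L1_Mus1_3end, L1_Mus2_3end and Lx_3end sense had values of 1.16, 1.14 and 0.69 with adjusted p of 0.0685, 0.0614 and 0.199, which came to -0.30, -0.31 and -0.77 after scaling. Of the 4 L1_Mus strands and the 4 L1_Rat strands, 0 passed in either direction (limma; 2 and 0 had an unadjusted p under 0.05, upward).

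**Figure D3:**
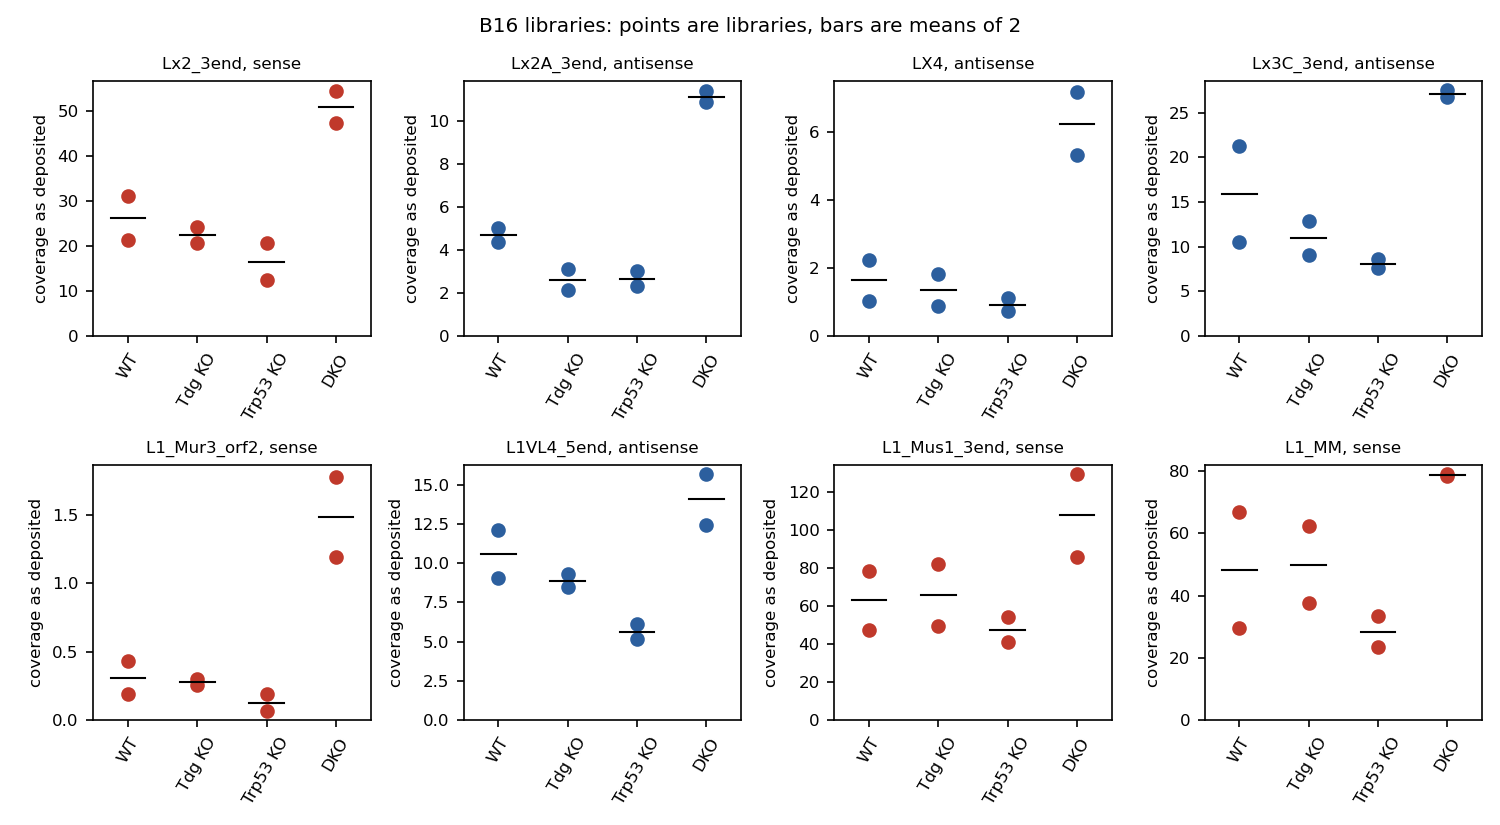
Coverage as deposited in the 8 B16 libraries for 8 older LINE-1 strands named in the text, with points for libraries and bars for means of 2. The DKO libraries are the highest in each panel, and the first 6 panels show strands that rose against Trp53 KO as deposited.

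L1Md families and SINEs gave other counts in the same comparison. Of 54 L1Md strands, 4 rose (7.41%), with a median log2 change of 1.24 that came to -0.22 after scaling. B1 rose in 8 of 9 sense and 8 of 9 antisense strands, and B2 in 11 of 12 sense and 4 of 12 antisense strands. After scaling, 5 and 7 B1 strands and 8 and 0 B2 strands still rose, where 0 sense and 2 antisense members did. The difference between these lists and the members was not tested.

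DKO was also set against Tdg KO and WT, in comparisons that share the DKO libraries with the one above. Against Tdg KO, 3 of 83 member strands rose and 0 fell, against 3.05% and 0.0803% of all kept strands. The 3 were LX5c, L1VL2_5 and Lx2A_3end antisense, and Lx2A_3end had a log2 change of 2.07 ± 0.38 (limma adjusted p = 0.0447). The other pair was listed at 0 in both Tdg KO libraries and reached the minimum coverage only through DKO, so 1 of the 3 calls was free of the filter. After median-ratio scaling, 0 rose and 0 fell (0.722% and 0.161% of all kept strands), and Lx2A_3end had a value of 1.03 (limma adjusted p = 0.226). The count was also 0 in both directions with median centring (0.161% and 0.161%) and with quantile normalization (1.04% and 0.642%). Both DKO libraries were above both Tdg KO libraries in 58 member strands and below them in 1, against 62.1% and 3.13% of all kept strands. Of these member strands, 56 and 1 reached the minimum coverage without the higher group. The members' median was 0.84 against 1.14 for all kept strands, and -0.17 against 0.22 after scaling. With groups at 0 set to their bound or to no change, as above, the medians as deposited were 0.80 and 0.87. With any single WT, Trp53 KO or Tdg KO library left out the count was 0, without DKO library 1 it was 2, and without DKO library 2 it was 4.

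Against WT, 1 of 83 rose and 0 fell, against 4.09% and 0.0803% of all kept strands. It was L1VL2_5 antisense, which had signal in the DKO libraries alone and reached the minimum coverage only through them, so 0 calls were free of the filter. Lx2A_3end antisense had a value of 1.22 ± 0.38 (adjusted p = 0.0831), and LX4 antisense one of 1.94 ± 0.61 (adjusted p = 0.0877), and both had DKO above WT in every library. After median-ratio scaling, median centring and quantile normalization, 0 rose and 0 fell, against 0.883%, 0.241% and 1.04% of all kept strands that rose and 0.241%, 0.321% and 1.12% that fell. The DKO libraries were both above WT in 52 member strands and both below in 1, against 54.7% and 5.94%. Of these member strands, 50 and 1 reached the minimum coverage without the higher group. The members' median was 0.71 against 1.09 for all kept strands, and -0.24 against 0.29 after scaling. With groups at 0 set to their bound or to no change, as above, the medians as deposited were 0.67 and 0.78. The count was 2 without DKO library 1, 4 without DKO library 2, and 0 without any one of the other 6 libraries.

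In B16 cells with intact Trp53, loss of Tdg gave no call. Of 83 member strands, 0 rose and 0 fell in Tdg KO against WT, as in the whole table (0% in each direction, limma), and 0 and 3 had an unadjusted p under 0.05 (15 and 27 of all 1246). Values above 0 were found for 25 of 39 sense strands and 5 of 44 antisense strands, against 44.0% and 36.5% of all kept sense and antisense strands. The L1Md families had the same split, with 27 of 27 sense and 0 of 27 antisense strands above 0. Both Tdg KO libraries were above WT in 3 of the 83 member strands and below WT in 26, against 6.50% and 21.2% of all kept strands. Of the 44 antisense members 20 were below WT, against 135 of all 600 kept antisense strands. Of the 39 sense members 6 were below, against 129 of all 646 kept sense strands. The medians were 0.10 for sense and -0.33 for antisense, against -0.02 and -0.12 for all kept strands, and they were 0.20 and -0.23 after scaling. With groups at 0 set to their bound or to no change, as above, they were 0.10 and -0.33 as deposited. For all kept strands they were then 0 and -0.03. L1_Rat4_3end antisense, at 8.73 and 4.56 in WT and 2.85 and 2.63 in Tdg KO, had a log2 change of -1.18 ± 0.45, and -1.08 after scaling. LX antisense, at 17.6 and 15.0 in WT and 11.0 and 8.40 in Tdg KO, had one of -0.75 ± 0.31, and -0.65 after scaling (limma adjusted p = 1.00 for both). The Tdg KO libraries were lower for both entries, though neither passed. LX5c antisense, at 0.243 and 0.241 in WT, was listed at 0 in both Tdg KO and both Trp53 KO libraries. The WT values of LX5c lay under a floor of 3 fragments per library, so no fall is read from them. Without either DKO library, 1 member fell in Tdg KO against WT.

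Trp53 KO against WT shares the WT libraries with that comparison and also gave 0 rises and 0 falls (0% of all kept strands in each direction, limma), with 0 and 3 members at an unadjusted p under 0.05 (16 and 65 of all 1246). The members' median was -0.57 against -0.41 for all kept strands, and -0.11 against 0.00 after scaling. With groups at 0 set to their bound or to no change, as above, the medians as deposited were -0.55 and -0.32. Both Trp53 KO libraries were below WT in 32 member strands and above in 0, against 35.2% and 3.61% of all kept strands. L1VL4_5end antisense, at 9.06 and 12.1 against 5.15 and 6.10 with Trp53 KO, had a log2 value of -0.89 ± 0.32, or -0.40 after scaling (adjusted p = 0.641). L1VL1_5end sense, at 1.59 and 2.83 against 0 and 0.794, had a value of -2.89 ± 1.08 (adjusted p = 0.657) and -2.77 after scaling. The mean of L1VL1_5end sense in Trp53 KO lay under a floor of 3 fragments per library, so no size is read from its value. Both strands had lower Trp53 KO libraries, and neither passed. Without either DKO library, 1 member fell here too.

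Whether the effect of Tdg loss differed with Trp53 genotype was tested as an interaction in the same fit. No member passed (0% of all kept strands in each direction, limma), while 31 (37.3%) had an unadjusted p under 0.05 upward and 0 downward, against 34.3% and 0.803% of all kept strands. The members' median was 1.47 against 1.66 for all kept strands, and -0.05 against 0.44 after scaling. The smallest adjusted p was 0.0662, for LX5c antisense, which was kept only through DKO. Lx2A_3end antisense had an interaction of 2.87 ± 0.53 and Lx2B_3end antisense of 1.90 ± 0.44 (adjusted p = 0.0757 for both), which came to 1.35 and 0.35 after scaling. Without DKO library 1 the count was 3, and without DKO library 2 it was 6.

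**Figure D4:**
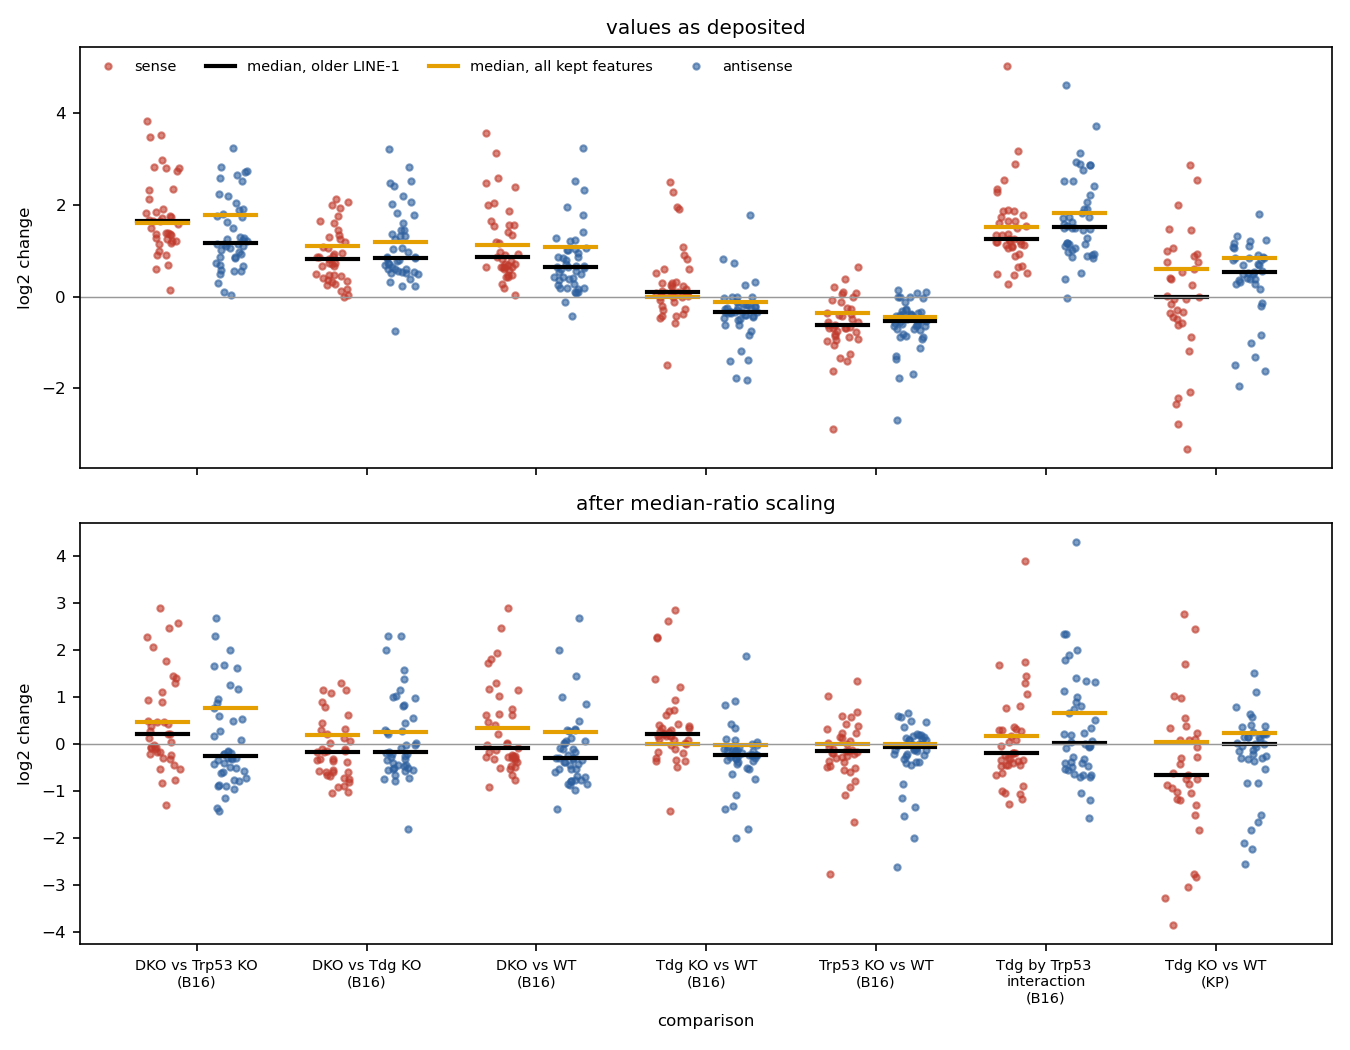
Log2 change of each kept older LINE-1 strand in the 7 comparisons, as deposited (top) and after median-ratio scaling (bottom), with the median of the members (black) and of all kept strands of that orientation (orange). As deposited the members' medians in the 3 DKO comparisons lie below those of all strands, apart from sense in DKO against Trp53 KO (1.65 against 1.61), and after scaling they lie between -0.30 and 0.21. The medians are of fitted values, with groups at 0 not set to a bound.

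In KP, Tdg KO against WT gave 0 rises and 0 falls among 74 member strands (0% of all 984 kept strands in each direction, limma), with 2 upward and 2 downward at an unadjusted p under 0.05 (44 and 4 of all 984). The members' median was 0.40 against 0.75 for all kept strands, and -0.18 against 0.15 after scaling. A group was at 0 in 5 member strands and 171 of all kept strands. With these set to their bound or to no change, as above, the medians as deposited were 0.38 and 0.42. All Tdg KO libraries were above WT in 11 member strands and below in 4, against 19.2% and 0.915% of all kept strands, and 8 and 2 of these reached the minimum coverage without the higher group. By strand the median was 0.00 for sense and 0.55 for antisense, against 0.60 and 0.83 for all. With the bounds these were 0 and 0.52, against 0.27 and 0.56 for all. LX5 sense was at 0.796 and 1.02 in WT and listed at 0 in all 3 Tdg KO libraries, at least 1.49-fold lower against a floor of 3 fragments per library. Lx3C_3end sense was at 0.684, 0.420 and 0.871 in Tdg KO and listed at 0 in WT, so it was at least 1.02-fold higher there. L1VL1_5end sense, at 0.527, 0.266 and 0.770 against 0 in WT, lay under the floor. None of the 3 passed (limma adjusted p = 0.777 for each). Each was kept for testing only through the group in which it is high, so the separation of its groups supports nothing.

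The best-covered entries in KP did not pass. L1_Mus2_3end sense coverage was 21.5 and 15.6 in WT and 7.27, 19.9 and 30.5 in Tdg KO, and Lx2_3end sense coverage was 8.30 and 7.66 in WT and 4.78, 4.16 and 12.1 in Tdg KO. In both, Tdg KO library 1 was below WT and library 3 above it. The log2 changes were -0.16 ± 0.76 and -0.35 ± 0.68, and those of L1_Mus1_3end and Lx_3end sense were -0.05 ± 0.82 and -0.06 ± 0.76 (limma adjusted p of 0.862 to 0.986 for the 4). After scaling the 4 values were -0.86, -1.05, -0.75 and -0.75, with an adjusted p of 0.979 for each. The median of the Lx sense strands in KP went from -0.35 to -1.05, and that of the L1_Mus sense strands from -0.10 to -0.80.

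A shift between the strands of the same entry was tested as the log2 ratio of sense to antisense coverage, which does not depend on library size except through the pseudocount. No member passed in DKO against Trp53 KO, in Tdg KO against WT in B16, or in KP (limma; 0% of the 730 entries in B16 and of the 581 in KP). At an unadjusted p under 0.05 there were 1, 1 and 1 members toward sense and 0, 0 and 1 toward antisense, against 48, 17 and 8 toward sense and 70, 14 and 15 toward antisense among all entries. Those toward sense were, in order, L1VL1_5end, LX5c and Lx3C_3end, and LX5 was toward antisense. Sense of L1VL1_5end in Trp53 KO lay under a floor of 3 fragments per library. LX5c was listed at 0 on both strands in Tdg KO. Sense was listed at 0 in KP WT for Lx3C_3end and in KP Tdg KO for LX5. These shifts depend on the pseudocount and support nothing. In DKO against Trp53 KO the members' median shift was 0.52, with 28 of 44 above 0, against -0.06 for all entries. In Tdg KO against WT it was 0.48, with 36 of 44 above 0, against 0.02. In KP it was -0.32, with 16 of 39 above 0, against -0.21. The 27 L1Md entries had medians of 0.76, 0.51 and -0.23. The smallest adjusted p among members was 0.276, 0.467 and 0.859. Leaving out DKO library 2 gave 1 call in DKO against Trp53 KO, and leaving out either DKO library gave 1 in Tdg KO against WT.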

How the data were processed

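The authors deposited 2 tables, B16 and KP, of mean signal per entry, named as piPipes output; per the file headers each library has a sense and an antisense column. Sense values were taken as coverage (signal). The deposited antisense values are signed scores at or below 0, whose minus sign was dropped. HISAT2, DESeq2 and the mm10 build appear in the submitters' processing notes, with no version or role. How reads were aligned, how multi-mapping reads were treated and how many reads a library had is not given in the sources used here. Entry names are printed without class and taxon. Duplicates (6 entries equal to another to 6 decimals) were removed, leaving 889 entries: 536 repeats and 353 piRNA loci.

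Each strand of an entry was 1 feature. Those with a mean coverage of at least 0.1 in their table were kept: 1246 in B16, 83 of them members (39 sense, 44 antisense, of 106), and 984 in KP, 74 of them members. Log2(coverage + 0.1) of all groups of a table was fitted with limma 3.58.1 (lmFit, eBayes with trend) in R 4.3.3, two-sided, Benjamini-Hochberg adjusted over all kept features. Fold changes are on that scale and understate those of low entries. Tests were made within a table only. Residual degrees of freedom were 4 and 3. Strand ratios were fitted without trend. Scaling by median ratio used features with a mean of at least 1. Floors cover counting error only. Values after ± are the SE of the limma fit or, for sums, the SD over libraries. The fit was tested on simulated data. No sequences are printed.

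The members, lists and tests were chosen with earlier results of these data known. Named in each comparison were up to 10 member strands past the threshold with the smallest p, or the 3 with the smallest p where fewer than 3 passed, and the 4 members with the highest sense coverage. Alternatives were other scalings, pseudocounts and filters, a replicate block, only the compared groups, and each library left out.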

Additional observations from a re-analysis of the deposited data

Results flagged for a closer look

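The fitted values of L1VL1_5end sense for loss of Tdg had opposite signs in the cell lines, -1.49 in B16 and 2.55 in KP. No direction is read from them: the KP values lie under a floor of 3 fragments per library and WT was listed at 0, and the mean of the B16 Tdg KO libraries is under that floor as well. Neither passed in limma, and the difference was not tested.

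The fitted values of LX5 sense also had opposite signs, 2.12 for DKO against Trp53 KO in B16 and -3.33 for Tdg KO against WT in KP. In KP, Tdg KO was listed at 0 and the strand was kept for testing only through WT. In B16 the strand was at 0 and 1.01 in Trp53 KO. That mean lies under a floor of 3 fragments per library, so no size is read from the B16 value. Neither passed in limma, the tables were fitted separately, and the difference was not tested. Fitted values against a group at 0 depend on the pseudocount and are not bounds.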

How the results depend on the processing

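In DKO against Trp53 KO, the 20 rises became 2 with median-ratio scaling, 0 with median centring (5 falls), 0 with quantile normalization, 12 with a replicate block and 0 with only the compared groups, and ranged from 0 to 23 with single libraries left out. In DKO against Tdg KO, the 3 rises became 0 under each of the 3 scalings, at a mean coverage of at least 1, with the replicate block and with only the compared groups, became 6 at a pseudocount of 1, and ranged from 0 to 4 with libraries left out. In DKO against WT, the 1 rise became 0 under the same settings and at a pseudocount of 1, and 2 with no filter, with a range of 0 to 4. With only the compared groups, 1 member fell in Trp53 KO against WT. At a pseudocount of 0.01, 1 member passed in the interaction and 1 in the strand ratio of Tdg KO against WT. With libraries left out, the counts ranged from 0 to 6 rises for the interaction, 0 to 1 falls in Tdg KO and in Trp53 KO against WT, 0 to 1 strand ratio shifts in DKO against Trp53 KO and in Tdg KO against WT in B16, and 0 to 0 in every KP count. Where 1 library is left, it is assumed to vary like the other groups. Counts of 0 not named here were 0 under each alternative. The strand ratio fit with a trend was added after seeing the data and also gave 0 calls in each comparison.

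Deviations of same-numbered libraries correlated at -0.02 to 0.18. With so few libraries per group these values cannot exclude a pairing by replicate number. The replicate block changed the calls in the 3 DKO comparisons only (12, 0 and 0 rises).

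With median-ratio scaling, summed sense coverage moved to 586 in Trp53 KO, 719 in Tdg KO and 517 in DKO, and to 162 in KP WT. Antisense sums moved to 1535 in WT, 1774 in Trp53 KO, 1320 in Tdg KO, 1043 in DKO and 188 in KP WT. Taken over members with a mean of at least 1 only, the sums and the shares of repeat coverage did not move beyond 1 SD. A share is formed within a library, so scaling of the library cannot change it.

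The values of named strands changed sign in 28, 21 and 22 cases under median centring, median-ratio scaling and quantile normalization. The scalings remove a shift common to a library by construction. Values follow that order. DKO against Trp53 KO: L1_Mus1_3end -0.89, -0.30, -0.20, L1_Mus2_3end -0.91, -0.31, -0.27, Lx_3end -1.36, -0.77, -0.64, L1VL4_5end antisense -0.75, -0.14, -0.092 and Lx2B_3end antisense -0.76, -0.16, -0.016. DKO against Tdg KO: L1_Mus1_3end -0.77, -0.33, -0.32, L1_Mus2_3end -0.83, -0.39, -0.28, L1_MM -0.80, -0.36, -0.26 and Lx_3end -1.25, -0.81, -0.66. DKO against WT: L1_Mus1_3end -0.59, -0.17, -0.13, L1_Mus2_3end -0.72, -0.30, -0.26, L1_MM -0.55, -0.14, -0.15 and Lx_3end -0.95, -0.53, -0.47. Interaction: L1_Mus1_3end -1.08, -0.46, -0.39, L1_Mus2_3end -1.02, -0.40, -0.30, L1_MM -0.80, -0.18, -0.059 and Lx_3end -1.66, -1.04, -0.83. Trp53 KO against WT: L1_Mus1_3end 0.31, 0.13, 0.065, L1_Mus2_3end 0.19, 0.011, 0.013 and Lx_3end 0.41, 0.24, 0.17. Tdg KO against WT: L1_Mus2_3end 0.12, 0.091, 0.026. With median centring alone the values were -0.56 for L1_MM, -0.39 for Lx2_3end, -0.022 for Lx2A_3end antisense and -0.32 for Lx3C_3end antisense in DKO against Trp53 KO, -0.15 for Lx2A_3end antisense in DKO against WT, -0.28 for Lx2B_3end antisense in the interaction and 0.0047 for L1_MM in Trp53 KO against WT. With quantile normalization alone, L1_Mur3_orf2 in DKO against Trp53 KO was -0.11.

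Leaving out 1 library changed the sign of 14 values, none of which had passed. In Tdg KO against WT in B16, L1_Mus1_3end was -0.31 without Tdg KO 1 or WT 1, L1_MM -0.25 and -0.47, Lx_3end -0.17 without WT 1, and L1_Mus2_3end 0.32 without Tdg KO 2 and 0.24 without WT 2. Over all libraries left out, L1_Mus1_3end ranged from -0.31 to 0.42, L1_Mus2_3end from -0.34 to 0.32, L1_MM from -0.47 to 0.70 and Lx_3end from -0.17 to 0.51. In Trp53 KO against WT, Lx_3end was 0.15 without Trp53 KO 2 and 0.076 without WT 2, from a lowest value of -0.68. In KP, without Tdg KO 1, L1_Mus1_3end was 0.57, L1_Mus2_3end 0.42 and Lx_3end 0.38, without Tdg KO 2 Lx_3end was 0.10, and without WT 1 L1_Mus2_3end was 0.070; without Tdg KO 3 L1_Mus1_3end was -0.66, L1_Mus2_3end -0.60 and Lx_3end -0.65.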
